A study of Mus musculus with 24 samples.

Results

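The cyclins, the cyclin-dependent kinases (CDKs), the CDK inhibitors and the kinases, phosphatases and adaptors that set CDK activity were followed through mammary tumor development in the mouse. The 33 genes were chosen by symbol, and all 33 were found among the 37991 Ensembl genes of the count table through GENCODE M1. Of these, 32 passed the filter on low counts, which asked for a CPM (counts scaled to the library total) of 1 or more in at least 12 of the 24 samples, and were tested among 14918 genes. Cdkn2a did not pass. Total RNA was taken from female mice at weeks 6, 8, 10 and 12 of age, with 3 PyMT and 3 FVB mice at each week and therefore 24 samples in 8 groups. PyMT mice were F1 females heterozygous for the MMTV-PyVT transgene, which encodes the polyoma virus middle T antigen, on the FVB background. FVB mice were homozygous FVB females of the same age without the transgene. The MMTV long terminal repeat limits the transgene to mammary epithelium, so the PyMT samples were hyperplastic glands (week 6), adenoma or mammary intraepithelial neoplasia (week 8), early carcinoma (week 10) and late carcinoma (week 12), while the FVB samples were normal mammary glands. Each mouse gave 1 library, and the total count ranged from 6969375 to 13516601 per library with a median of 8280269.

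The cell cycle is driven by kinases that are active only when bound to a cyclin. D-type cyclins pair with Cdk4 and Cdk6 in G1 and, together with cyclin E and Cdk2, phosphorylate the retinoblastoma protein, which releases E2F factors that drive the genes of S phase. Cyclin A acts with Cdk2 and Cdk1 through S and G2 phase, and the B cyclins with Cdk1 bring the cell into mitosis. The INK4 proteins bind Cdk4 and Cdk6, the Cip/Kip proteins bind cyclin-CDK complexes, Wee1 and Pkmyt1 add inhibitory phosphates to CDKs and the Cdc25 phosphatases take them off. In the mammary gland cyclin D1 is required for the lobuloalveolar growth of pregnancy, and it is a well-known oncogene of breast cancer. Many genes of the later phases share short promoter elements: E2F sites in genes of S phase, and CCAAT boxes bound by NF-Y together with the cell cycle genes homology region (CHR), bound by the DREAM and MuvB complexes, in genes of G2 and mitosis.

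Promoter sequences in the RefSeq set (build GRCm38.p6, 250 bases before to 50 after each start) were matched for 24 of the 33 members, 29 promoters in all. The sequences of 6 members whose RNA was higher in PyMT samples are shown to place these elements: Ccnf, Cdk1 and Cks1b hold CCAAT and CHR letters in the stretch shown, Cdk1 also holds E2F letters, Cdc25a holds CCAAT and E2F letters, and Ccnb1 and Ccnb2 hold CCAAT alone in that stretch. Outside it, the Ccnb2 promoter also holds CHR letters, at positions -167 to -162 and 5 to 10 from the start. Each line gives the 150 bases before the start, 5′ to 3′ on the strand of the gene, and capitals mark the CCAAT box (or ATTGG on the other strand), the CHR letters TTTGAA (or TTCAAA) and the E2F letters.
Ccnb1: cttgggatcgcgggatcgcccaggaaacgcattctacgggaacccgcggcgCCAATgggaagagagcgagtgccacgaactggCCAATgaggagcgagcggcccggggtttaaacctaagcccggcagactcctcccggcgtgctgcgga
Ccnb2: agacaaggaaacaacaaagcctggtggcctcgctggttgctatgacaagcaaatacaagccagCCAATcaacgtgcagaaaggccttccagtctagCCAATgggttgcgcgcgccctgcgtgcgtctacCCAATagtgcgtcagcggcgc
Ccnf: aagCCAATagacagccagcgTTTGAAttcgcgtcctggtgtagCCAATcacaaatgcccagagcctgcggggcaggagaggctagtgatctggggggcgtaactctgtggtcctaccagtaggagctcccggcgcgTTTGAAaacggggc
Cdk1: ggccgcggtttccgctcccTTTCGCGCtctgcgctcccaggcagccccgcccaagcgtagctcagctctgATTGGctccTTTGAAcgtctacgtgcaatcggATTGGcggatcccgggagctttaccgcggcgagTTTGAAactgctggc
Cks1b: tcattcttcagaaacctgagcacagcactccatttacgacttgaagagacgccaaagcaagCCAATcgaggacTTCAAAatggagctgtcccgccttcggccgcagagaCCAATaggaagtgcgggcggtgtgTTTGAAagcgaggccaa
Cdc25a: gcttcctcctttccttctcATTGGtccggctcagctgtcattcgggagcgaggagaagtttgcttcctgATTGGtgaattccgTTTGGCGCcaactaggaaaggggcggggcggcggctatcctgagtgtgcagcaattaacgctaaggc
The stretches lie at chr13:100786487-100786636 (minus strand) for Ccnb1, chr9:70421555-70421704 (minus) for Ccnb2, chr17:24251410-24251559 (minus) for Ccnf, chr10:69352913-69353062 (minus) for Cdk1, chr3:89418292-89418441 (minus) for Cks1b and chr9:109875429-109875578 (plus) for Cdc25a, all upstream of the annotated start. The Cdk1 promoter carried both CHR letters and the E2F letters TTTCGCGC, and the Cdc25a promoter carried the E2F letters TTTGGCGC between a CCAAT box and the start.

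Over the whole 300-base window and both strands, an E2F element (TTTCCCGC, TTTCGCGC, TTTGCCGC or TTTGGCGC) was found in 4 of the 24 members with a promoter, Cdc25a, Cdk1, Cdk2 and Cdkn2a, and in 2.26% of all 32851 promoters or, counted by gene as for the members, 2.6% of 27025 genes. TTTGAA was found in 7 of the 24 members, Ccnb2, Ccnf, Cdk1, Cdkn2b, Cdkn3, Cks1b and Skp2, and in 17.9% of all promoters (20.2% of genes). CCAAT was found in 17 of the 24 members and in 37.4% of all promoters (41.1% of genes). The motifs do not overlap one another in their letters. Of the 16 members that were higher in PyMT over the 4 weeks, 12 had a promoter in the set, and of these 11 held CCAAT, 6 TTTGAA and 3 an E2F element. Of the 5 that were lower, 4 had a promoter, 3 of which held CCAAT and none of which held TTTGAA or an E2F element. Of the 11 members without a call, 7 had a promoter, 2 with CCAAT, 1 with TTTGAA (Cdkn2b) and none with an E2F element. A match describes letters in this window, and binding was not measured.

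PyMT and FVB samples of each week were compared with edgeR (quasi-likelihood, p-values adjusted by Benjamini-Hochberg over all 14918 genes). Genes whose adjusted p fell under 0.05 were called DEGs. In the fit of all 24 samples over the 4 weeks together, 16 of the 32 tested members were higher in PyMT and 5 were lower, beside 23.6% of all genes called higher and 27.4% called lower. Beyond a 2-fold change there were 12 higher members, beside 8.70% of all genes, and 3 lower members, beside 17.5%. The higher members were the 4 cyclins of S phase, G2 and mitosis (Ccna2, Ccnb1, Ccnb2 and Ccnf), Ccne2, the kinases Cdk1, Cdk2 and Cdk4, the regulators Cdc25a, Cdc25c, Wee1 and Cdkn3, the adaptors Cks1b, Cks2 and Skp2, and the inhibitor Cdkn1b. The lower members were Ccnd2, Ccnd3, Ccng1, Ccng2 and Cdkn2c. The median log2 fold change of the 32 members was 0.58, against -0.03 for all genes. With counts scaled by library size alone the split was 19 higher and 2 lower members, beside 5381 and 2858 of the 14918 genes. All genes then had a median of 0.26. An unadjusted p under 0.05 was found for 22 of the 32. With another scaling of the libraries (RLE), edgeR gave such a p for 8402 of the 14918 genes.

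**Figure D1:**
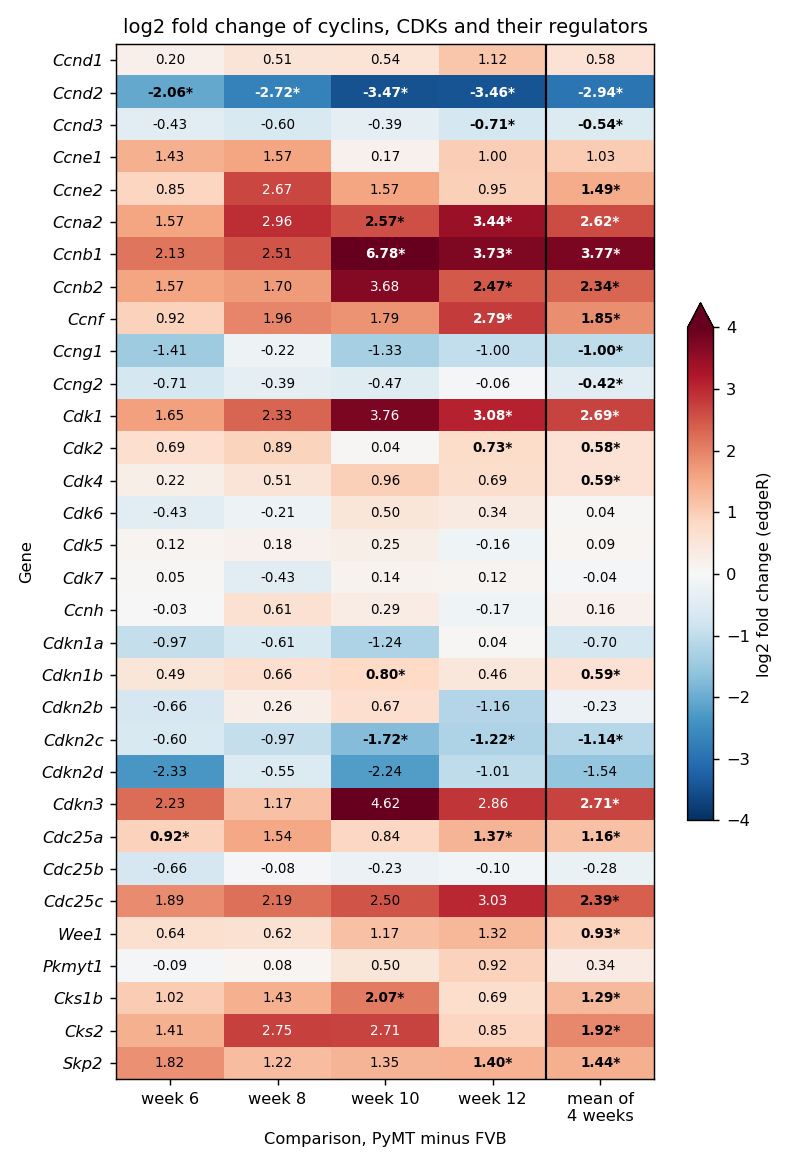
log2 fold change, PyMT minus FVB, of the 32 tested members (rows) at weeks 6, 8, 10 and 12 and over the 4 weeks together (columns), from edgeR; the colour scale ends at 4 and -4, and an asterisk with bold type marks an adjusted p under 0.05. Ccnd2 is negative and called in all 5 columns, while Ccna2, Ccnb1, Ccnb2, Ccnf and Cdk1 are positive in all 5.

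The number of called members was small in the first weeks. At week 6, 1 member was higher (Cdc25a), beside 4.82% of all genes, and 1 was lower (Ccnd2), beside 7.06%. None of the higher and 1 of the lower members lay beyond 2-fold, beside 3.58% and 6.46% of all genes, and 12 members had an unadjusted p under 0.05. With RLE scaling, edgeR gave such a p for 4012 of the 14918 genes. DESeq2 called 5 higher and 2 lower members at week 6, beside 1146 and 1690 of the 14918 genes. By edgeR the count of 2 fell to 1 without PyMT replicate 1, 2 or 3. Over all genes, edgeR then called 338, 682 or 368 higher and 537, 1078 or 633 lower. With no replicate left out it called 719 and 1053. At week 8, no member was called higher by edgeR, beside 4.34% of all genes (3.57% beyond 2-fold). DESeq2 called 1 higher, beside 1189 of the 14918 genes, and limma voom with sample quality weights called 4, beside 1440. By edgeR Ccnd2 alone was called lower, beside 6.86% of all genes (6.37% beyond 2-fold), and 10 members had an unadjusted p under 0.05. With RLE scaling, 4193 of the 14918 genes had such a p. Without FVB replicate 1 of week 8, in which Ccna2 was at 1.26 and Ccnb1, Cdk1 and Ccnf were at 0, 5 members were called, 3 without FVB replicate 3 and 2 without PyMT replicate 2. Of all genes, 762 were then higher and 961 lower, 462 and 620, and 406 and 924, in that order. With no replicate left out these were 648 and 1024.

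Calls were more numerous in the carcinomas, both among the members and over all genes. At week 10, 4 members were higher (Ccna2, Ccnb1, Cks1b and Cdkn1b), beside 6.27% of all genes, and 3 of them lay beyond 2-fold, beside 4.83%. Ccnd2 and Cdkn2c were lower, both beyond 2-fold, beside 9.91% and 9.09% of all genes. The week 10 count of 6 was 14 without FVB replicate 2 and 3 without FVB replicate 1 or any PyMT replicate. Of all genes, edgeR called 854 higher and 1270 lower without FVB replicate 2, and 710 and 1160 without FVB replicate 1. Without a PyMT replicate it called 391 to 472 and 893 to 1068, against 935 and 1479 with none left out. At week 12, 8 members were higher (Ccna2, Ccnb1, Ccnb2, Ccnf, Cdk1, Cdk2, Cdc25a and Skp2), beside 12.5% of all genes, 7 of them beyond 2-fold, beside 7.75%. The 3 lower members (Ccnd2, Ccnd3 and Cdkn2c) stood beside 15.3% of all genes, and the 2 of them beyond 2-fold beside 13.0%. The week 12 count of 11 was 6 without PyMT replicate 3 and 7 without FVB replicate 3. Of all genes, 1049 were then higher and 1522 lower, and 1189 and 1679, in that order. With none left out these were 1867 and 2276. By library size alone the split was 2 and 1 at week 6, 4 and 1 at week 10, and 11 and 2 at week 12. The split of all 14918 genes was then 855 and 679, 1107 and 993, and 2991 and 1709. In all, 13 of the 32 members were called at 1 or more weeks, 5 at 2 or more, and Ccnd2 at all 4. Of all genes, 32.6% were called at 1 or more weeks, 17.7% at 2 or more and 5.99% at all 4. A positive log2 fold change at all 4 weeks was found for 18 of the 32 members and 30.1% of all genes, and a negative one for 7 members and 33.1% of all genes.

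Among the D-type cyclins, which open G1 with Cdk4 and Cdk6, cyclin D2 was much lower in PyMT. The PyMT samples had normalized counts of Ccnd2 (counts over DESeq2's size factors) of 368, 394 and 490.2 at week 6, 285, 254 and 419 at week 8, 264, 233 and 162 at week 10, and 283, 292 and 164 at week 12. The FVB samples had 1538, 1592 and 2086 at week 6, 2189, 2034 and 2171 at week 8, 2529, 2356 and 2701 at week 10, and 2752, 2081 and 3556 at week 12. All 12 PyMT samples lay below all 12 FVB samples. At week 6 edgeR gave a log2 fold change, with its standard error, of -2.06 ± 0.21 (adjusted p = 0.00166), and at week 8 one of -2.72 ± 0.25 (adjusted p = 0.00286). In the carcinomas it was -3.47 ± 0.23 (adjusted p = 0.000152) for week 10 and -3.46 ± 0.30 (adjusted p = 0.000296) for week 12. Ccnd2 was therefore 4.17-fold lower in hyperplasia and 11.0-fold lower in late carcinoma. The difference between these weeks, -1.41 ± 0.35 on the log2 scale, did not pass the adjustment (edgeR adjusted p = 0.667). For the 4 weeks together it was -2.94 ± 0.13 (adjusted p = 1.23e-12), and each of the 32 alternatives called it. The gene lies on mm9 at chr6:127075797-127101066 on the minus strand with 5 exon blocks, none of them shared with another gene model.

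Markers of several cell types, epithelial and other, also differed in the same contrast. In bulk tissue, fewer cells of a type and less RNA per cell cannot be told apart. The summed level of 8 adipocyte markers was 131 to 1924 CPM in the PyMT samples and 5298 to 12876 CPM in the FVB samples, and all 8 were called lower over the 4 weeks. All 6 fibroblast markers (2768 to 6079 against 4800.4 to 21931 CPM) and all 6 endothelial markers (83.0 to 250.5 against 403 to 928 CPM) were called lower as well, with 5 of 8 basal and myoepithelial markers (169 to 795 against 357 to 1844 CPM). Of 8 luminal epithelial markers, 6 were called higher and 1 lower, with sums of 2296 to 4694 CPM in PyMT and 317 to 2063 CPM in FVB. No marker of these 5 lists was at 0 in all samples of a genotype, and only Cnn1 was at 0 in any. Macrophage markers were 186 to 415 CPM in PyMT and 185 to 455 CPM in FVB, with 1 of 6 (Csf1r) called lower. T cell markers summed to at most 14.6 CPM and B cell markers to at most 4.59 CPM in any library. The part of these cell types in the result for Ccnd2, and in the other results, was not tested.

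Cyclin D1 did not pass edgeR's test at any week. Ccnd1 normalized counts in PyMT samples were 1696, 1296 and 1746 at week 6, 1227, 1225 and 1821 at week 8, 1345, 1805 and 791 at week 10, and 1303, 1616 and 2055 at week 12. FVB samples had 414, 1577 and 2138 at week 6, 690.1, 912 and 1428 at week 8, 1202, 1301 and 269 at week 10, and 529, 1459 and 386 at week 12. The groups overlapped at every week, with FVB values spread over a wider range (CV 56.8%) than PyMT values (CV 23.6%). The log2 fold change was 0.20 ± 0.49 at week 6 and 1.12 ± 0.46 (adjusted p = 0.108) at week 12. For the 4 weeks together it was 0.58 ± 0.28 (adjusted p = 0.0843), with 5 of 32 alternatives calling it. At week 12 it was called by 4 of 13 alternatives (DESeq2, voom, no filter on low counts, and without FVB replicate 2), with adjusted p-values over the 13 from 0.00198 to 0.275 and log2 fold changes of Ccnd1 from 0.79 to 1.87. In Ccnd1, 21.3% of the exon bases are shared with Oraov1 on the other strand. The FVB library with the lowest Ccnd1 (269, week 10 replicate 3) also had the lowest luminal marker sum (317 CPM), while the one with the highest Ccnd1 (2138, week 6 replicate 3) had 1279 CPM. The highest FVB luminal sum, 2063 CPM in week 12 replicate 2, went with a Ccnd1 of 1459. Week 10 replicate 3 also had 44476 CPM of skeletal muscle markers, and 4.40% of genes with a median of 10 to 30 CPM were at 0 in it. The part of luminal cells, muscle or library differences in the values of Ccnd1 was not tested.

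Cyclin D3 was slightly lower. Ccnd3 had normalized counts of 256, 385 and 563 at week 6, 342, 372 and 315 at week 8, 279, 329 and 397 at week 10, and 312, 292 and 339 at week 12 in PyMT samples. In FVB samples it had 567, 443 and 617 at week 6, 483, 462 and 624 at week 8, 403, 503 and 458 at week 10, and 509.9, 435 and 652 at week 12. The groups overlapped at week 6 and did not overlap at the later weeks. Ccnd3 reached the threshold at week 12, with -0.71 ± 0.21 (adjusted p = 0.0346) on the log2 scale, and over the 4 weeks, -0.54 ± 0.12 (adjusted p = 0.000747), a 1.46-fold lower level. The week 12 call was lost without any PyMT replicate and without FVB replicate 1 or 3, and both calls were lost with library size alone. A near-identical copy elsewhere on mm9 (at least 95% identity) covers 86.7% of its transcript and Bysl overlaps 15.7% of its exon bases, so its level is uncertain.

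**Figure D2:**
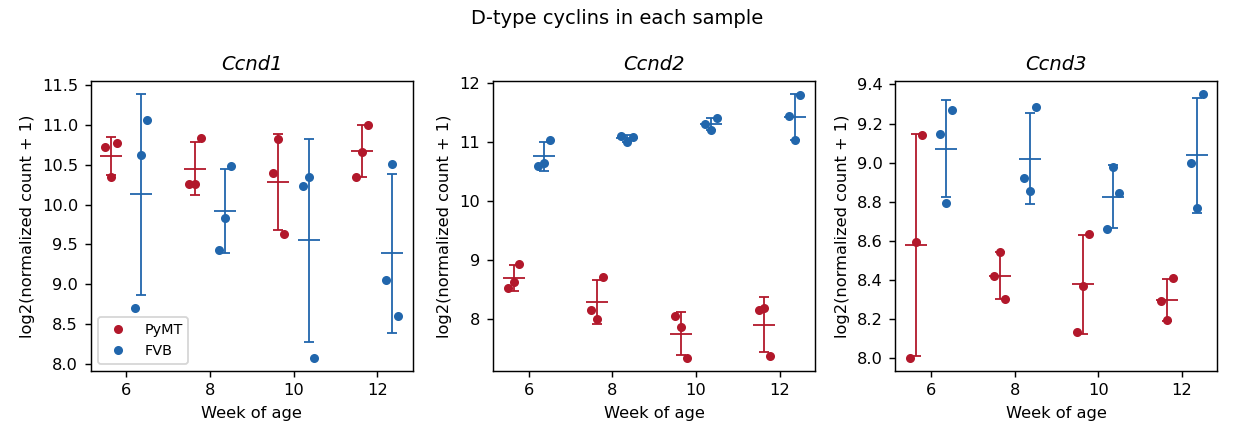
log2(normalized count + 1) of Ccnd1, Ccnd2 and Ccnd3 (vertical axes) at weeks 6, 8, 10 and 12 of age (horizontal axes) in PyMT (red) and FVB (blue) samples; each point is 1 sample and bars show the mean and SD of 3. Every PyMT point of Ccnd2 lies below every FVB point, while the points of Ccnd1 overlap at each week.

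The makeup of the D-type cyclin pool differed between the genotypes when levels were divided by exon length. The share of Ccnd2 in the sum of the 3 genes, as normalized counts per kilobase, was 8.83% ± 2.23 (SD, n = 12) in PyMT and 45.5% ± 10.8 (SD, n = 12) in FVB. Its range was 4.03% to 12.0% in PyMT and 30.6% to 63.4% in FVB. The share of Ccnd1 was 64.7% ± 7.25 in PyMT, from 50.2% to 74.9%, and 28.6% ± 13.3 in FVB, from 9.39% to 46.6%. Neither share overlapped between the genotypes. The share of Ccnd3 was 26.5% ± 6.86 in PyMT and 25.8% ± 5.38 in FVB, with overlapping ranges. By week, Ccnd2 made up 11.1% ± 0.803 of the PyMT pool at week 6 and 7.31% ± 2.87 at week 12, and 35.0% ± 6.86 and 52.5% ± 12.0 of the FVB pool (SD, n = 3 each). These shares were given no test. Per kilobase, Ccnd1 had the highest median level of the 33 members in PyMT samples (386 normalized counts per kilobase), followed by Cdk4 (340.5), Ccng1 (311) and Ccna2 (303). In FVB samples Ccnd2 came first (382), followed by Ccng1 (345), Ccnd1 (276) and Cdk4 (239), with Ccna2 at 43.3. The spread over samples was wide for some of these, with a CV of 94.3% for Ccng1 in FVB. The length used was that of all annotated exon bases of a gene. For Cdk4 it was 3249 bases, against 2053 in its longest protein-coding transcript, and for Ccnd1 3835 against 3740. The ranks of Ccnd1 and Cdk4 therefore depend on the length used.

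Of the G1 kinases, Cdk4 was called and Cdk6 was not. Cdk4, the main partner of cyclin D1, was higher over the 4 weeks, with a log2 fold change of 0.59 ± 0.17 (adjusted p = 0.00619), and it passed at no single week. Its normalized counts ranged from 812 to 1492 (median 1106) in PyMT and from 372 to 1133 (median 776) in FVB, and 18.6% of its exon bases are shared with Tspan31. Cdk6, the other kinase of D-type cyclins, ranged from 66.6 to 513 (median 279) in PyMT and from 206 to 390.3 (median 268) in FVB, with a log2 fold change of 0.04 ± 0.21 (adjusted p = 0.894). Cdk6 was lowest, at 66.6, in PyMT replicate 2 of week 8. Cdk4 made up 70.7% to 93.8% of the summed Cdk4 and Cdk6 level per kilobase in PyMT and 64.3% to 81.6% in FVB. These shares divide Cdk4 by 3249 exon bases, against 2053 in its longest protein-coding transcript, while both lengths are 3735 for Cdk6. With transcript lengths the share of Cdk4 would be larger.

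Cyclin E and Cdk2 carry the cell from G1 into S phase. Cdk2 had normalized counts of 226, 382 and 371 at week 6, 331, 405 and 293 at week 8, 251, 271 and 282 at week 10, and 335, 304 and 261 at week 12 in PyMT samples. The FVB samples had 165, 146 and 295 at week 6, 129, 201 and 228 at week 8, 316, 272 and 221 at week 10, and 164, 194 and 200.1 at week 12. The groups were apart at weeks 8 and 12 and overlapped at weeks 6 and 10. The call at week 12, 0.73 ± 0.22 (adjusted p = 0.0394), was lost without any 1 of the 6 libraries, while the log2 fold change over the 4 weeks was 0.58 ± 0.14 (adjusted p = 0.00169). Ccne2 ranged from 48.3 to 183 (median 90.8) in PyMT and from 0 to 109 (median 39.0) in FVB, with 2 FVB libraries at 0, and was higher over the 4 weeks by 1.49 ± 0.52 (adjusted p = 0.021) on the log2 scale (2.09 without FVB replicate 2 of week 10). Ints8 overlaps 17.4% of its exon bases. Ccne1 ranged from 12.2 to 179.8 (median 62.2) in PyMT and from 0 to 67.3 (median 35.9) in FVB, and its log2 fold change of 1.03 ± 0.50 (adjusted p = 0.0893) did not pass.

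The cyclins of S phase, G2 and mitosis were higher in PyMT, and the FVB glands differed widely among themselves. Ccna2, the cyclin of S phase and G2, had normalized counts of 1229, 1015 and 1381 at week 6, 1149, 1233 and 1346 at week 8, 1110.4, 1019 and 749.8 at week 10, and 934, 797 and 953 at week 12 in PyMT samples. In FVB samples there were 54.5, 792 and 373 at week 6, 1.26, 176 and 304 at week 8, 129, 248 and 124 at week 10, and 36.3, 202 and 17.5 at week 12. Every PyMT sample lay above the FVB samples of its week, yet FVB replicate 2 of week 6 (792) exceeded the lowest PyMT sample (749.8, week 10). Ccna2 was 5.94-fold higher at week 10, with a log2 fold change of 2.57 ± 0.33 (adjusted p = 0.00211), and 10.9-fold higher at week 12, with 3.44 ± 0.74 (adjusted p = 0.011). Neither call was lost under any of the 13 alternatives of each week, but without FVB replicate 2, the highest FVB sample of week 12, the week 12 fold of Ccna2 was 33.8 (log2 5.08). At weeks 6 and 8 the log2 fold changes of 1.57 ± 0.71 (adjusted p = 0.203) and 2.96 ± 1.02 (adjusted p = 0.104) did not pass. Exosc9, on the other strand, shares 14.6% of its exon bases.

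The B cyclins start mitosis with Cdk1. For Ccnb1 the PyMT samples had normalized counts of 642, 529 and 529 at week 6, 339.6, 291 and 422 at week 8, 318, 428 and 228 at week 10, and 413, 272 and 362 at week 12. FVB samples had 10.4, 257 and 116 at week 6, 0, 52.3 and 134 at week 8, 7.19, 0 and 0 at week 10, and 4.04, 70.6 and 6.56 at week 12. No week showed an overlap, and 3 of the 12 FVB libraries were at 0. Ccnb1 had a log2 fold change of 6.78 ± 1.03 (adjusted p = 0.00415) at week 10, a fit against 2 FVB libraries at 0 and 1 at 7.19, so that its size rests on that 1 library, and 3.73 ± 0.87 (adjusted p = 0.0148) at week 12. For the 4 weeks together Ccnb1 had 3.77 ± 0.57 (adjusted p = 1.26e-05), or 4.94 without that library. Without FVB replicate 2 the week 12 value of Ccnb1 was 5.99 on the log2 scale. The week 12 call was lost without PyMT replicate 3 (edgeR adjusted p = 0.0527). Copies elsewhere on mm9 cover 83.1% of the Ccnb1 transcript, so its level is uncertain.

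Ccnb2, which has no such copy, had normalized counts of 323, 334 and 433 at week 6, 229, 302 and 377 at week 8, 344, 133 and 229 at week 10, and 214, 177 and 290.2 at week 12 in PyMT. Its FVB values were 22.0, 238 and 104 at week 6, 34.1, 83.7 and 165 at week 8, 5.03, 51.1 and 0 at week 10, and 14.8, 90.7 and 21.9 at week 12. The groups were apart at each week. Ccnb2 passed at week 12, with 2.47 ± 0.65 (adjusted p = 0.0235) on the log2 scale, and over the 4 weeks, 2.34 ± 0.45 (adjusted p = 0.000192). The week 12 call was lost without any PyMT replicate, without FVB replicate 3 and in the fit of all 24 samples, and without FVB replicate 2 its log2 value was 3.62. Without FVB replicate 2 of week 10 the value of Ccnb2 over the 4 weeks was 2.98. Ccnf, an F-box cyclin that marks proteins for degradation, had normalized counts of 227, 300.3 and 355 at week 6, 291, 271 and 345 at week 8, 200.2, 298 and 195 at week 10, and 159, 139 and 251 at week 12 in PyMT samples. In FVB it had 30.1, 281 and 154 at week 6, 0, 102 and 132 at week 8, 12.9, 162 and 31.3 at week 10, and 18.8, 41.6 and 21.9 at week 12. The groups overlapped at week 6 and were apart later. Ccnf was 6.89-fold higher at week 12, with a log2 fold change of 2.79 ± 0.46 (adjusted p = 0.00341).

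Cdk1, the kinase of mitosis, followed its cyclins. PyMT samples had Cdk1 normalized counts of 726, 481 and 758 at week 6, 502, 472 and 653 at week 8, 602, 866 and 391 at week 10, and 408, 359 and 476 at week 12. FVB samples had 60.3, 376 and 185 at week 6, 0, 107 and 220.4 at week 8, 22.3, 116 and 0 at week 10, and 14.8, 106 and 30.6 at week 12. The groups did not overlap at any week, and 2 FVB libraries were at 0. Cdk1 had a log2 fold change of 3.08 ± 0.61 (adjusted p = 0.00753) at week 12, an 8.48-fold higher level, and 18.1-fold without FVB replicate 2 of that week. It missed the threshold at week 10 with 3.76 ± 1.09 (adjusted p = 0.0522). The 4 weeks together gave 2.69 ± 0.52 (adjusted p = 0.00018).

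**Figure D3:**
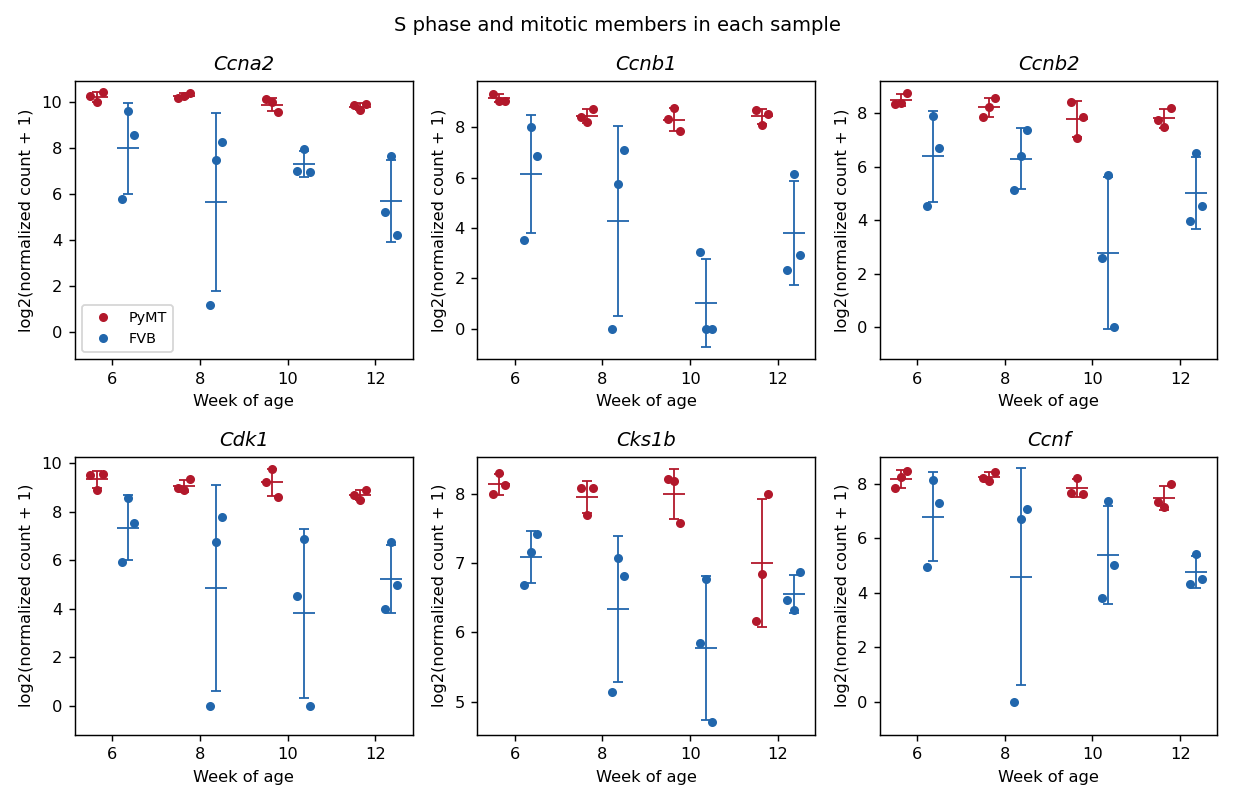
log2(normalized count + 1) of Ccna2, Ccnb1, Ccnb2, Cdk1, Cks1b and Ccnf (vertical axes) by week of age (horizontal axes) in PyMT (red) and FVB (blue) samples; each point is 1 sample and bars show the mean and SD of 3. The PyMT points of Ccna2, Ccnb1, Ccnb2 and Cdk1 lie above the FVB points of the same week at all 4 weeks, and the FVB points spread further.

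The spread among FVB glands ran through these genes together. Over the 12 FVB samples the CV of Ccna2, Ccnb1, Ccnb2, Ccnf and Cdk1 was 107%, 145%, 104%, 104% and 108%, and over the 12 PyMT samples 18.7%, 30.6%, 31.0%, 27.6% and 29.0%. The highest FVB value of each of these 5 genes was that of replicate 2 of week 6. The libraries also differed in how many genes they missed. In FVB replicate 3 of week 10 and PyMT replicate 2 of week 8, 4.40% and 2.87% of 3799 genes with a median of 10 to 30 CPM were at 0, against at most 1.92% in any other library. In 13 of the 24 libraries low counts gathered around a common size of 8 to 25 counts. Without FVB replicate 3 of week 10 and PyMT replicate 2 of week 8, left out after seeing the data, 21 members were called over the 4 weeks. Of these, 17 were higher and 4 lower, beside 3527 and 3942 of the 14918 genes. The part of these library differences in the spread was not tested.

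Among the Cdc25 phosphatases, which activate CDKs, 2 of 3 were higher over the 4 weeks. Cdc25a, which acts at the entry into S phase, had normalized counts of 529, 474 and 376 at week 6, 250, 510.1 and 338 at week 8, 313, 278 and 204 at week 10, and 378, 234 and 290.2 at week 12 in PyMT. In FVB it had 217, 268 and 237 at week 6, 21.4, 195 and 162 at week 8, 84.1, 279.6 and 95.5 at week 10, and 98.2, 139 and 122 at week 12. It was the only higher member at week 6, 0.92 ± 0.23 (adjusted p = 0.0382) on the log2 scale, where the groups did not overlap, and that call was lost without any 1 of the 6 libraries. At week 12 the log2 fold change was 1.37 ± 0.28 (adjusted p = 0.00796), a call lost in the fit of all 24 samples (adjusted p = 0.0686). Cdc25c, which acts at the entry into mitosis, ranged from 75.5 to 190.0 (median 111) in PyMT and from 0 to 64.1 (median 21.0) in FVB, with all 12 PyMT above all 12 FVB samples. Its log2 fold change over the 4 weeks was 2.39 ± 0.73 (adjusted p = 0.00931), 4 FVB libraries were at 0, and it passed at no single week. Without FVB replicate 2 of week 10 or of week 12 this value of Cdc25c was 4.26 or 3.48. Cdc25b ranged from 74.0 to 209 (median 117) in PyMT and from 52.5 to 238 (median 152) in FVB, with a log2 fold change of -0.28 ± 0.24 (adjusted p = 0.35).

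Of the kinases that oppose Cdc25, Wee1 was also higher, by 0.93 ± 0.20 (adjusted p = 0.000476) on the log2 scale over the 4 weeks. Its normalized counts ranged from 78.1 to 407 (median 226) in PyMT and from 70.6 to 185 (median 137) in FVB, with no call at a single week. Pkmyt1 ranged from 55.2 to 148 (median 95.5) in PyMT and from 0 to 148 (median 75.3) in FVB, with a log2 fold change of 0.34 ± 0.40 (adjusted p = 0.508), and Paqr4 overlaps 15.4% of its exon bases. Cdkn3, a phosphatase that removes the activating phosphate of CDKs, was higher by 2.71 ± 0.71 (adjusted p = 0.00307) on the log2 scale, or 3.80 without FVB replicate 2 of week 10, and ranged from 12.8 to 105 (median 48.3) in PyMT and from 0 to 29.4 (median 6.03) in FVB.

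The small CDK-binding proteins Cks1b and Cks2 were higher over the 4 weeks, as was Skp2, which with Cks1b delivers p27 (the product of Cdkn1b) to degradation. Cks1b had normalized counts of 254, 314 and 279 at week 6, 270.0, 205 and 271 at week 8, 297, 290.3 and 191 at week 10, and 70.9, 114 and 254 at week 12 in PyMT. FVB samples had 102, 142 and 170.0 at week 6, 34.1, 134 and 112 at week 8, 56.8, 108 and 25 at week 10, and 87.4, 79.4 and 116 at week 12. The groups were apart at weeks 6, 8 and 10 and overlapped at week 12, where 2 PyMT samples lay below the highest FVB sample. Cks1b passed at week 10, with 2.07 ± 0.56 (adjusted p = 0.0412) on the log2 scale (2.68 without FVB replicate 2), and that call was lost without any PyMT replicate or FVB replicate 1. Skp2, the F-box protein, had 179, 246 and 432 at week 6, 263, 81.6 and 279 at week 8, 276, 265 and 160.4 at week 10, and 150.1, 100.4 and 246 at week 12 in PyMT. It had 37.1, 112 and 93.4 at week 6, 40.4, 122 and 109.6 at week 8, 92.7, 157 and 31.3 at week 10, and 51.1, 78.1 and 65.6 at week 12 in FVB. The groups overlapped at week 8 only. Skp2 had a log2 fold change of 1.40 ± 0.42 (adjusted p = 0.0388) at week 12, lost without PyMT replicate 1 or 3 or FVB replicate 1 or 3, with voom and in the fit of all 24 samples, and 1.44 ± 0.29 (adjusted p = 0.000353) over the 4 weeks. Cks2 ranged from 55.6 to 152 (median 86.6) in PyMT and from 0 to 93.3 (median 27.6) in FVB, with 4 FVB libraries at 0, and its log2 fold change was 1.92 ± 0.71 (adjusted p = 0.0289), or 2.98 without FVB replicate 3 of week 8 and 3.63 without FVB replicate 2 of week 10. Copies on mm9 cover 84.1% of the Cks1b and 86.6% of the Cks2 transcript, so both levels are uncertain.

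Of the Cip/Kip inhibitors, the gene for p27 was higher in PyMT. Cdkn1b had normalized counts of 924, 1239 and 719.9 at week 6, 1106, 1260.1 and 917 at week 8, 1002, 1063 and 981 at week 10, and 1087, 1078 and 925 at week 12 in PyMT samples. In FVB samples it had 689.6, 588 and 759 at week 6, 496, 769 and 824 at week 8, 548, 712 and 549 at week 10, and 725, 858 and 733 at week 12. The groups overlapped at week 6 and were apart at weeks 8, 10 and 12. Cdkn1b was 1.74-fold higher at week 10, with a log2 fold change of 0.80 ± 0.18 (adjusted p = 0.0208), a call lost without any PyMT replicate or FVB replicate 1. The 4 weeks together gave 0.59 ± 0.10 (adjusted p = 3.61e-05), called under all 32 alternatives. Cdkn1a, which encodes p21 and is a target of p53, was low, from 0 to 144 (median 38.9) in PyMT and from 6.98 to 139 (median 68.7) in FVB, with a log2 fold change of -0.70 ± 0.54 (adjusted p = 0.291).

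Of the INK4 inhibitors, which act on Cdk4 and Cdk6, Cdkn2c was lower in PyMT. Cdkn2c, the gene for p18, had normalized counts of 264, 247 and 301 at week 6, 224, 357 and 236 at week 8, 201, 182 and 154 at week 10, and 289, 213 and 245 at week 12 in PyMT. FVB samples had 434, 332 and 461 at week 6, 665, 519 and 422 at week 8, 825, 307 and 703 at week 10, and 745, 402 and 656 at week 12. All PyMT samples lay below the FVB samples of their own week, while FVB replicate 2 of week 10 (307) lay below the highest PyMT sample (357, week 8). Cdkn2c had a log2 fold change of -1.72 ± 0.38 (adjusted p = 0.019) in early and -1.22 ± 0.26 (adjusted p = 0.0102) in late carcinoma. The 4 weeks together gave -1.14 ± 0.15 (adjusted p = 2.55e-06), a 2.20-fold lower level. The week 10 call was lost without any PyMT replicate or FVB replicate 1 and with library size alone. All adipocyte, fibroblast, endothelial and skeletal muscle markers, and 5 of 8 basal and myoepithelial markers, were called lower in the same contrast of PyMT with FVB. The part of these cell types in the result for Cdkn2c was not tested.

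The other INK4 genes had low counts. A CPM of 1 was reached in 21 of the 24 samples by Cdkn2b, in 13 by Cdkn2d and in 3 by Cdkn2a. Cdkn2b (p15) ranged from 0 to 120.0 (median 24.4) in PyMT and from 0 to 98.4 (median 38.1) in FVB, with a log2 fold change of -0.23 ± 0.64 (adjusted p = 0.789). Cdkn2d (p19) ranged from 0 to 20.6 (median 5.16) in PyMT and from 0 to 65.7 (median 13.4) in FVB, with 4 libraries of each genotype at 0, and copies cover 100% of its transcript. Cdkn2a, which encodes both p16 and Arf, was at 0 in 7 PyMT and 9 FVB libraries and reached 69.4 normalized counts in PyMT replicate 2 of week 8, 23.5 and 12.0 in PyMT replicates 2 and 3 of week 12, and at most 5.47 in FVB. It was not tested. Where counts arrive one by one, a count of 0 allows up to 3 counts, and such limits cover counting error only. In the 13 libraries whose low counts gathered around a common size of 8 to 25 counts, that limit of 3 does not hold.

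**Figure D4:**
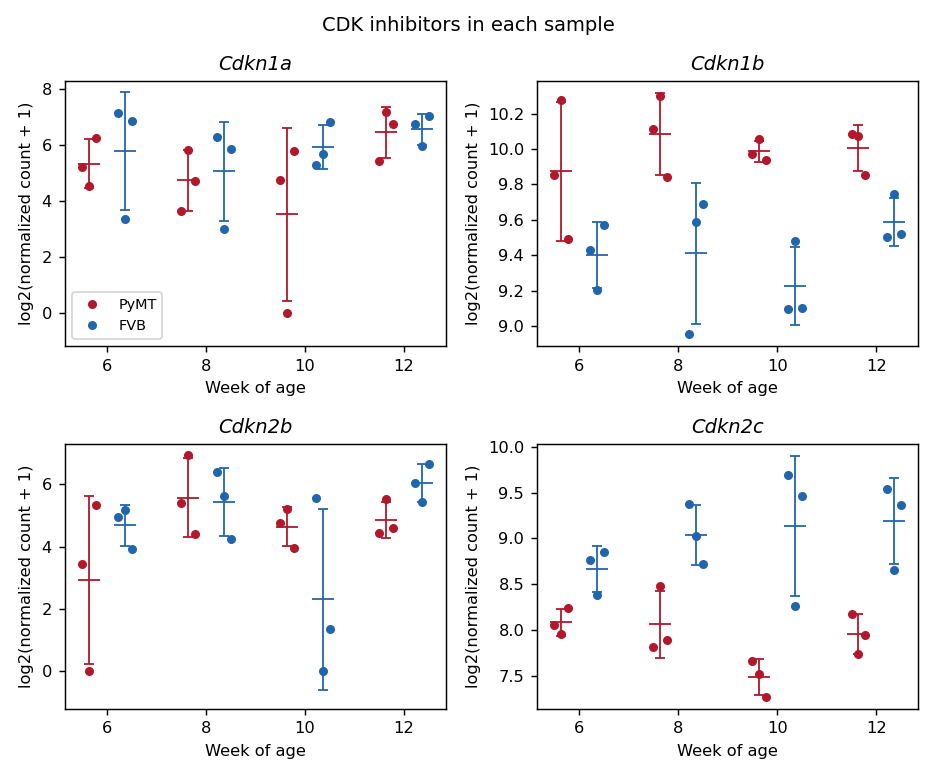
log2(normalized count + 1) of the CDK inhibitors Cdkn1a, Cdkn1b, Cdkn2b and Cdkn2c (vertical axes) by week of age (horizontal axes) in PyMT (red) and FVB (blue) samples; each point is 1 sample and bars show the mean and SD of 3. The PyMT points of Cdkn2c lie below the FVB points at each week, those of Cdkn1b lie above them from week 8 on, and those of Cdkn1a and Cdkn2b overlap at each week.

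The G cyclins, which are induced by p53 or in resting cells and are not known to drive the cycle, were called lower over the 4 weeks. Ccng1 normalized counts in PyMT samples ranged from 659 to 1310.5 (median 1092) and in FVB samples from 724 to 6684 (median 1210.3). The call, -1.001 ± 0.33 on the log2 scale (adjusted p = 0.0162), rested on a few FVB libraries. FVB replicate 1 of week 6 had 6289.7 normalized counts, replicate 2 of week 6 had 2170.4, replicate 3 of week 10 had 6684 and replicate 1 of week 12 had 4321. These were the 4 libraries whose summed level of 10 skeletal muscle markers exceeded 10000 CPM: 45816, 14393, 44476 and 28746 CPM in that order. The other 20 libraries had at most 4022 CPM, each of the 10 markers was at 0 in at least 1 PyMT library, and all 10 were called lower over the 4 weeks. Without those 4 libraries, left out after seeing the data, the log2 fold change of Ccng1 was 0.13 (edgeR adjusted p = 0.487), so that its sign turned. It was also no longer called without FVB replicate 1 of week 6 or FVB replicate 3 of week 10 alone. The 4 libraries also held the 4 highest values of Ccng1, so leaving them out had to raise its log2 fold change. The part of muscle in the result for Ccng1 was not tested. Without the 4 libraries 19 members were called over the 4 weeks, 15 higher and 4 lower, and Cks2 also missed the threshold (adjusted p = 0.0794). Ccng2 ranged from 324 to 621 (median 507) in PyMT and from 479 to 861 (median 649.5) in FVB and was lower by -0.42 ± 0.11 (adjusted p = 0.00275), a call lost with library size alone (adjusted p = 0.419).

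**Figure D5:**
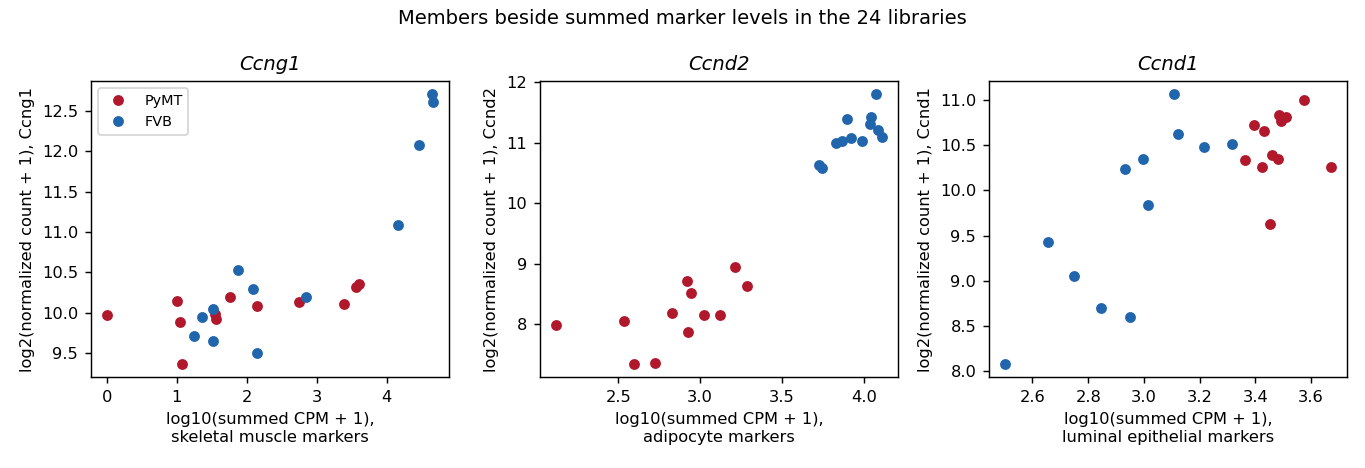
Normalized counts as log2(value + 1) of Ccng1, Ccnd2 and Ccnd1 (vertical axes) against the summed CPM, as log10(value + 1), of skeletal muscle, adipocyte and luminal epithelial markers (horizontal axes) in the 24 libraries, PyMT in red and FVB in blue. The 4 FVB libraries with over 10000 CPM of muscle markers hold the 4 highest values of Ccng1, and for Ccnd2 the genotypes form separate clouds on both axes.

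The CDK-activating kinase, formed by Cdk7 with cyclin H, and the neuronal CDK Cdk5 were not called at any week. Cdk7 ranged from 406 to 786 (median 492) in PyMT and from 349 to 651 (median 519) in FVB, with a log2 fold change of -0.04 ± 0.11 (adjusted p = 0.777). Ccnh ranged from 127 to 277 (median 204) in PyMT and from 81.4 to 310.0 (median 186) in FVB, with 0.16 ± 0.18 (adjusted p = 0.485). Cdk5 ranged from 142 to 362 (median 288) in PyMT and from 170.1 to 313 (median 266) in FVB, with 0.09 ± 0.14 (adjusted p = 0.637).

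Whether the members changed as the tumors grew was asked by comparing week 12 with week 6 within each genotype in the fit of all 24 samples. In PyMT no member was called by edgeR, DESeq2 or limma voom, 2 had an unadjusted p under 0.05 (Ccnd2 and Ccng2), and 0% of all genes were called by edgeR in either direction. Of all genes, DESeq2 called 0.597% higher and 0.168% lower at week 12, and voom 0.241% and 0.127%. Ccnd2 had a log2 fold change of -0.76 ± 0.25 (adjusted p = 0.44) and Ccng2 of 0.57 ± 0.22 (adjusted p = 0.529) between the weeks. The median was -0.31 over the 32 members and -0.018 over all genes. In FVB no member was called by any of the 3 tools either, beside 0% of all genes by edgeR, 0.0670% higher and 0.0737% lower by DESeq2 and 0.489% and 0.0938% by voom, and 5 had an unadjusted p under 0.05 (Ccnd2, Ccna2, Ccnb1, Ccnf and Wee1). Here Ccna2 had -2.29 ± 0.91 (adjusted p = 1) and Ccnf -2.53 ± 0.97 (adjusted p = 1), and 26 of the 32 members had a negative log2 fold change. The median was -0.496 over the members and -0.012 over all genes. The change of the PyMT and FVB difference between weeks 6 and 12 was called for no member by the 3 tools (0% of all genes by edgeR, 5 genes up and 6 down by DESeq2 and 3 and 7 by voom), with 1 unadjusted p under 0.05 (Ccnd2). Between weeks 8 and 10, when carcinoma appears, no member was called by the 3 tools, beside 0.00670% of all genes called higher and 0% lower by edgeR (6 genes up and 1 down by DESeq2 and none by voom), and 3 had an unadjusted p under 0.05 (Ccnd2, Ccnb1 and Cdk2). The median change between these weeks was 0.03 for the members and 0.009 for all genes. With RLE scaling, edgeR gave an unadjusted p under 0.05 for 1023 of the 14918 genes in PyMT and 643 in FVB. For the change of the difference it did so for 712 between weeks 6 and 12 and 541 between weeks 8 and 10.

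Genes that act around these members, in lists chosen with earlier results of these data known, are summarised over the 4 weeks. Of 13 genes for E2F factors and pocket proteins, 4 were called higher and 3 lower, near the 23.6% and 27.4% of all genes, among them Rb1, the retinoblastoma protein, with 0.66 ± 0.13 (adjusted p = 0.000198), the E2F partner Tfdp1 with 0.55 ± 0.12 (adjusted p = 0.000845) and E2f4 with -0.54 ± 0.14 (adjusted p = 0.00246). Of 24 tested genes for other cyclins, CDKs, activators and inhibitors, 4 were higher and 3 lower, both shares below those of all genes. Cdkn1c, which encodes the Cip/Kip inhibitor p57, was lower by -2.46 ± 0.37 (adjusted p = 1.11e-05), Cdk14 was lower by -1.88 ± 0.18 (adjusted p = 3.22e-08) and Cdk17 was higher by 0.57 ± 0.12 (adjusted p = 0.000552). Of 22 genes for the ubiquitin ligases APC/C and SCF, which degrade cyclins and inhibitors, 9 were higher and 1 lower, against 23.6% and 27.4% of all genes. Cdc20, the activator of the APC/C in mitosis, had 2.75 ± 0.47 (adjusted p = 5.56e-05), its ubiquitin-conjugating enzyme Ube2c 2.38 ± 0.47 (adjusted p = 0.000239), and Fbxw7, which targets cyclin E, 0.78 ± 0.14 (adjusted p = 8.64e-05).

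All 15 genes of a proliferation list were called higher over the 4 weeks, against 23.6% of all genes, 13 of them beyond 2-fold, with a median log2 fold change of 1.73. The list was chosen with earlier results of these data known, so this count describes it and is not a test. Pcna, the sliding clamp of DNA polymerase, had 1.05 ± 0.15 (adjusted p = 4.72e-06), Mki67 2.34 ± 0.39 (adjusted p = 4.08e-05) and the helicase subunit Mcm2 1.73 ± 0.30 (adjusted p = 6.01e-05). At week 6 only 2 of the 15 passed, and at week 12 11 did, beside 4.82% and 12.5% of all genes called higher. The summed level of the list was 1233 to 2332 CPM in PyMT and 112 to 1176 CPM in FVB, and FVB replicate 2 of week 6, with the highest FVB values of the mitotic cyclins, had 1176 CPM. Of 10 p53 target genes, none was called higher by edgeR and 4 lower, against 27.4% of all genes called lower, with -2.73 ± 0.19 (adjusted p = 3.19e-10) for Phlda3, -1.38 ± 0.14 (adjusted p = 4.72e-08) for Plk2 and -1.24 ± 0.46 (adjusted p = 0.0303) for Eda2r.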

How the data were processed

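Total RNA depleted of ribosomal RNA was sequenced as directional libraries. The authors used GSNAP for alignment to mm9 and HTSeq for counting, and the deposited values are raw read counts of 37991 genes, not normalized. The strand setting and the annotation of the counting were not given in the sources used here. Genotype, week and replicate came from the sample titles. The test took the 14918 genes that reached a CPM of 1 in 12 or more of the 24 samples. PyMT and FVB were compared with edgeR 4.0.16 (quasi-likelihood, TMM, Benjamini-Hochberg) in R 4.3.3, by week on 6 samples and over the 4 weeks on 24. The standard error was the size of the log2 fold change over the square root of F. Normalized counts are counts over DESeq2 1.42.0 size factors. Replicates differed by a chi-square per gene of 19.6 to 223 over 24 pairs, so none was a copy. Alternatives were DESeq2's Wald test, limma 3.58.1 voom, other scalings, no filter, a replicate block and libraries left out. Copies were sought with BLAST 2.17.0. The fits were tested on simulated data. The members and lists were chosen with earlier results of these data known. All 33 members are named, and of each other pathway list at most the 3 genes with the smallest p over the 4 weeks.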

Additional observations from a re-analysis of the deposited data

How the results depend on the processing

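Over the 4 weeks the number of called members stayed between 19 and 22 under all alternatives, and every comparison between weeks kept 0 calls. The weekly counts moved more, as did the calls over all 14918 genes, given as higher and lower. At week 6 edgeR called 719 and 1053, DESeq2 1146 and 1690, voom 1007 and 1238. At week 8 these were 648 and 1024, 1189 and 1887, 1440 and 1995. Week 10 had 935 and 1479, 1460 and 2131, 1500 and 2144, and week 12 1867 and 2276, 2145 and 2789, 2405 and 2651. All 24 samples in one fit gave 1195 and 1647, 1656 and 1973, and 1363 and 1759 at weeks 8, 10 and 12. At week 6 the count of 2 was 7 with DESeq2, 4 without the filter on low counts, 5 with voom, 4 without the 2 FVB libraries rich in muscle markers (an alternative chosen after seeing the data, which leaves 1 FVB sample, assumed to vary like the others) and 1 to 2 with a replicate left out. At week 8 the count of 1 was 3 with DESeq2, 5 without the filter, 2 with the replicate block, 7 with voom, 6 with all 24 samples in one fit and 1 to 5 with a replicate left out. Without the filter, edgeR called 785 higher and 1216 lower of 22460 genes at week 6 and 959 and 1432 of 23580 at week 8. At week 10 the count of 6 was 10 with DESeq2, 11 with all 24 samples in one fit and 3 to 14 with a replicate left out, and at week 12 the count of 11 was 15 with DESeq2, 14 with voom, 8 with all 24 samples in one fit (Ccnb2, Cdk2, Cdc25a and Skp2 lost, Wee1 gained) and 6 to 13 with a replicate left out. Library size alone shifted the median of all genes from -0.03 to 0.26 over the 4 weeks. The log2 fold change of Ccng1 over the 4 weeks turned from -1.001 to 0.13 without the 4 FVB libraries rich in muscle markers. The cause was not tested for any of these moves. Not divided by length, the share of Ccnd2 among the D-type cyclins was 14.0% in PyMT and 60.3% in FVB. Divided by length and with a replicate left out, it was 8.54% to 9.26% and 43.9% to 46.9%. The numbers of members with each promoter element differed by at most 2 in the 250 bases before the start. Replicate numbers are not said to pair PyMT and FVB mice. The correlations of deviations between same-numbered samples ran from -0.041 to 0.198, with 4 of 12 pairs over 0.1, and 8 of the 12 PyMT samples correlated best with the FVB sample of their own number. With the replicate block there were 2 calls at week 6 (Cdc25a lost, Skp2 gained), 2 at week 8 (Ccnb2 gained), 7 at week 10 (Cdk1 gained), 9 at week 12 (Cdk2 and Skp2 lost) and 21 over the 4 weeks. Over all genes the block gave 464 higher and 787 lower at week 6, 519 and 924 at week 8, and 855 and 1369 at week 10. It gave 1548 and 1935 at week 12 and 3544 and 4036 over the 4 weeks. The 3 samples a group and counts near 0 in several FVB libraries limit the precision for Cdkn3, Cks2, Cdc25c, Cdkn2b and Cdkn2d. The tests set each difference against the spread between libraries of single mice. Each mouse gave 1 library, so differences between mice and between libraries cannot be told apart in that spread.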
